A study of Mus musculus with 4 samples.

Results

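Axonal transport kinesins are the motor proteins that carry vesicles, mitochondria and cytoskeletal cargo from the nerve cell body along microtubules towards the axon tip. The set was fixed by name as 10 genes, the kinesin-1 heavy chains Kif5a, Kif5b and Kif5c, the kinesin-1 light chains Klc1 and Klc2, the kinesin-2 subunits Kif3a, Kif3b and Kif3c, and the kinesin-3 motors Kif1a and Kif1b. Of these, 9 had a row under their own symbol among the 11747 rows of the deposited table. Klc2 had none, but the table holds 1 row without a symbol whose RefSeq accessions belong to Klc2. That row is described apart and is not counted among the 9.

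Each kinesin walks by turning over ATP in a pair of motor domains and holds its cargo through its tail or through associated chains. Kinesin-1 is a tetramer of heavy and light chains, kinesin-2 pairs Kif3a with Kif3b or Kif3c and adds the accessory protein Kifap3, and kinesin-3 works without light chains. Neurons depend on these motors because nearly all axonal protein is made in the cell body, and motor neurons have some of the longest axons.

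RNA was sequenced in 4 libraries of mouse motor neuron cultures. The cells were a derivative of the A172LoxP embryonic stem cell line in which doxycycline turns on a transgene for a transcription factor, and both groups carry that transgene. Embryoid bodies (floating cell aggregates) were patterned for 2 days with 0.5 µM all-trans retinoic acid together with the Sonic hedgehog pathway agonist purmorphamine at 1 µM, and cultured 2 to 3 days longer with vehicle (2 libraries, numbered 1 and 7 in the table) or with 2 µg/mL doxycycline (2 libraries, numbered 2 and 8). Whether both libraries of a group stem from separate cultures is not stated in the labels, and p-values therefore reflect only how far these libraries differ, a spread that may be technical. Estimated reads assigned to the rows of the deposited table ranged from 22434762 to 30235764 per library. The labelled cell type was checked on 8 motor neuron markers, of which 7 were listed and Slc5a7 was not. Without doxycycline the summed normalized count of those 7 was 11135 and 10884, and with it 4916 and 4182. Of the 7, 6 were called lower (limma, adjusted p under 0.05), as 1.79% of all rows were. These were Slc18a3, Prph, Mnx1, Isl2, Chat and Isl1. Slc18a3 averaged 2920 in the vehicle libraries and 941 under doxycycline, and Mnx1 1579 and 345. Lhx3, a LIM-homeodomain factor, went the other way. It averaged 1163 in the vehicle libraries and 1683 under doxycycline (limma, adjusted p = 0.155), its groups not overlapping. The table also held 14 markers of endoderm and mesoderm, with summed counts between 234594 and 622401, higher in libraries 7 and 8 than in 1 and 2. Most of these sums came from the basement membrane genes Col4a1, Col4a2, Lama1 and Lamb1, each at 30009 or more in every library, while none of the other 10 markers was above 7239. Part of the samples' spread followed the library numbers as well: 8 of the 9 kinesin genes were higher in library 1 than in 7, and 9 of 9 were higher in library 2 than in 8, while over all rows 51.9% and 51.6% were.

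The question put to these libraries was how the RNA of the axonal motors differs with doxycycline, which induces the factor. No library had doxycycline without the transgene, so effects of doxycycline itself and of the factor cannot be told apart. All 9 kinesin genes had a change below 0, as did 49.4% of all rows, and 3 of them, Kif5a, Kif1a and Klc1, fell (limma, adjusted p under 0.05), with none called higher. Over all 11747 rows, 1.79% were called lower and 0.579% higher. A fit without an intensity trend called 0 kinesin genes lower and 105 of all rows in either direction. The number of kinesin genes called lower also changed with the library left out. In all these fits every one of the 9 except Kif5b kept a change below 0. The median change of the 9 was -0.33 on the log2 scale, where a change is the difference of log2(normalized count + 1) with minus without doxycycline, and the median of all rows was 0.00. For 8 of the 9, both libraries with doxycycline lay below both without it, which held for 26.5% of all rows. The same 8 genes reached an unadjusted p under 0.05, as 11.5% of all rows did in that direction. In bulk RNA, fewer cells of a type and less RNA per cell cannot be told apart.

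**Figure D1:**
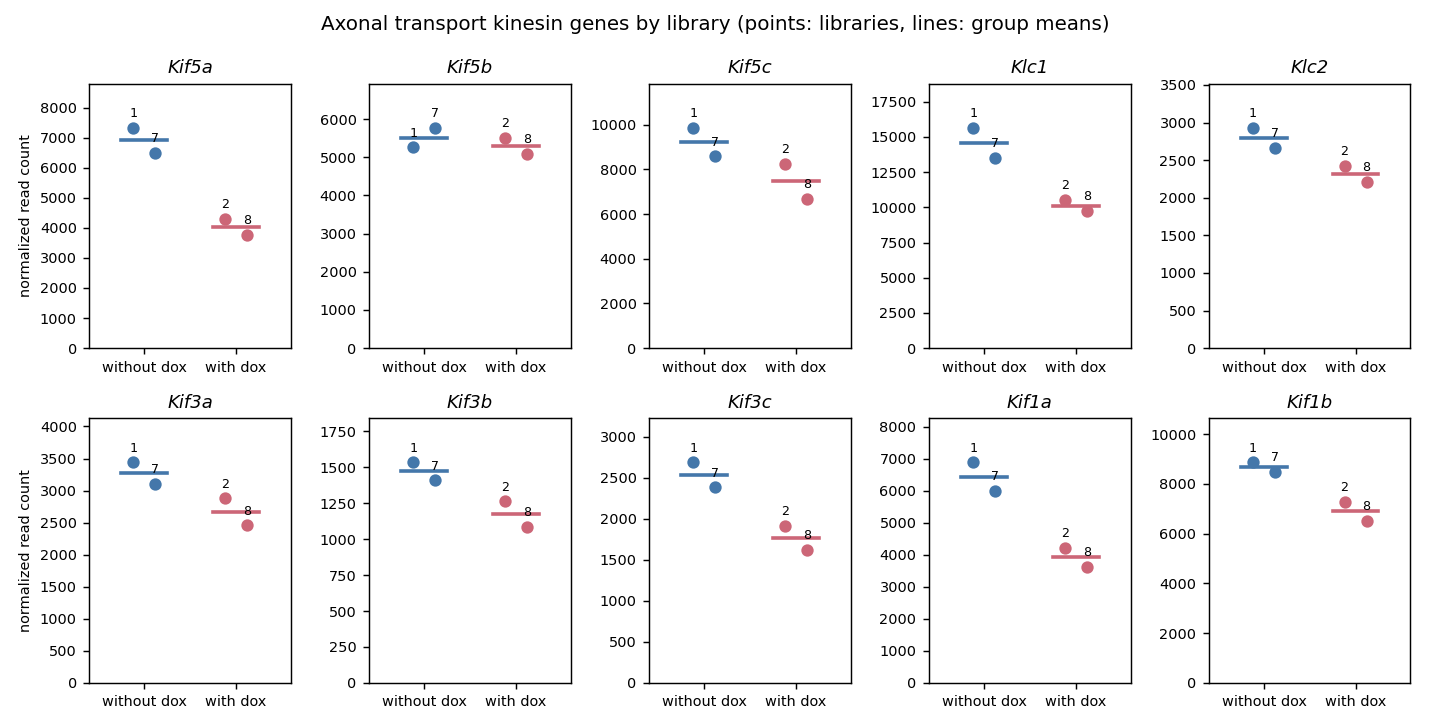
Normalized read count (y axis, from 0, with its own scale in each panel) of the 10 kinesin genes in the 2 libraries without and the 2 with doxycycline; points are libraries with their numbers and lines are group means. The groups are apart in every panel except that of Kif5b.

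Kinesin-1 is the main motor of fast anterograde transport, and its heavy chain exists in 3 versions. Kif5a and Kif5c are enriched in neurons, whereas Kif5b is made in most cell types. Kif5a, a gene mutated in a hereditary spastic paraplegia and in familial amyotrophic lateral sclerosis, was measured at 7331 and 6495 normalized counts in libraries 1 and 7, against 4288 and 3766 in libraries 2 and 8. Both libraries with doxycycline were far below both without, and the distance between the groups was larger than that within either. The group means were 6913 ± 591 and 4027 ± 369 (SD, n = 2), 1.72-fold lower with doxycycline, a log2 change of -0.78 ± 0.09 (SE, limma, adjusted p = 0.0250). Of all rows, 1.69% had a lower change. The call of Kif5a was lost without library 8 (limma, adjusted p = 0.0914).

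Kif5b did not follow. Its normalized counts were 5257 and 5774 without doxycycline and 5510 and 5079 with it, so the groups overlapped. The change was -0.06 ± 0.08, with a 95% confidence interval of -0.25 to 0.13 (limma, adjusted p = 0.715). Kif5c was the most abundant heavy chain, with 9870 and 8584 normalized counts without and 8247 and 6686 with doxycycline. The highest library with doxycycline lay only a little under the lowest without it. Its change of -0.31 ± 0.12 did not pass the test (limma, adjusted p = 0.221).

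The light chains bind the heavy chain tails and select cargo through their tetratricopeptide repeats. Klc1, the light chain enriched in nervous tissue, had 15659 and 13507 normalized counts without doxycycline and 10515 and 9737 with it. Per coding length it was the most abundant of the 10 genes in every library. The groups were apart, with means of 14583 ± 1522 and 10126 ± 550.0 and a change of -0.52 ± 0.09 (SE, limma, adjusted p = 0.0493), close to the threshold. The call was lost without library 1, 2 or 8 (limma, adjusted p = 0.107, 0.0960 and 0.200) and with quantile normalization (0.0522). The row that holds the accessions of Klc2, a light chain found more widely, had 2931 and 2657 normalized counts without and 2420 and 2211 with doxycycline. Those groups did not overlap either, but the change of -0.27 ± 0.08 did not pass (limma, adjusted p = 0.156). The 250 bases before the start of Klc1 are shown because it is 1 of the 2 genes past the test with an entry in the RefSeq promoter table (build GRCm38.p6). They lie on the plus strand at chr12:111758618-111758867, and the capitals mark GC boxes (GGGCGG on either strand):
Klc1: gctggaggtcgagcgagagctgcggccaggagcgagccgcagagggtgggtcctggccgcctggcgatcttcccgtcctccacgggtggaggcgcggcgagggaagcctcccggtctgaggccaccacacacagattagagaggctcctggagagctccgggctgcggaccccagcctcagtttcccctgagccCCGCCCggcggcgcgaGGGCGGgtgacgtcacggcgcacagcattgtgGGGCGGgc

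Kinesin-3 motors carry precursors of synaptic vesicles and dense core vesicles, and the shorter product of Kif1b has been linked to mitochondria. Kif1a, the neuronal member, stood at 6890 and 5989 normalized counts in the vehicle libraries, against 4223 and 3627 under doxycycline. As for Kif5a, the libraries of the 2 groups were well apart. The means were 6439.7 ± 637 and 3925 ± 421, 1.64-fold lower with doxycycline, and the change was -0.71 ± 0.10 (SE, limma, adjusted p = 0.0387). That call was lost without library 1, 2 or 8 (limma, adjusted p = 0.0575, 0.0501 and 0.135). Kif1b, which is expressed in many tissues, had 8863 and 8494 normalized counts without and 7281 and 6511 with doxycycline. Its groups did not overlap, yet the change of -0.33 ± 0.07 did not pass (limma, adjusted p = 0.0851). The table counts the long and the short isoform of Kif1b in 1 row, so they cannot be told apart. The 250 bases before the first start of Kif1a, the other gene past the test with a promoter entry, lie on the minus strand at chr1:93101875-93102124 (GRCm38.p6), with the E-box (CANNTG) in capitals:
Kif1a: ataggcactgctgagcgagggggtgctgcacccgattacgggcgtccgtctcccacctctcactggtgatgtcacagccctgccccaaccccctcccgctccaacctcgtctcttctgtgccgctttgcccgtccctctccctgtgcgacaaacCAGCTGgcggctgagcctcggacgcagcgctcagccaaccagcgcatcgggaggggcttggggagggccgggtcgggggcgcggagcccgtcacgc

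Kinesin-2 serves 2 places, the axon and the cilium, where it drives intraflagellar transport. None of its 3 motor subunits passed the limma test over all genes. All 3 had an unadjusted p under 0.05, as 11.5% of all rows did in that direction. For each of them both libraries with doxycycline were below both without, which held for 26.5% of all rows. Kif3c, a subunit enriched in neurons, had the largest change of the 3, from 2687 and 2384 normalized counts to 1916 and 1621, or -0.52 ± 0.11 (limma, adjusted p = 0.0759). It was called lower in 1 of the fits that left out a library, the one without library 7 (limma, adjusted p = 0.0391). Kif3a, the common partner of Kif3b and Kif3c, had 3439 and 3098 normalized counts without and 2877 and 2456 with doxycycline. Its change was -0.30 ± 0.10 (limma, adjusted p = 0.180). Kif3b, the widely expressed partner, was the least abundant of the 10 genes, with 1534 and 1409 against 1263 and 1082 normalized counts and a change of -0.33 ± 0.10 (limma, adjusted p = 0.156). Even its lowest library rested on an estimated 1071 reads, for which counting alone gives an error of 3.06%.

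**Figure D2:**
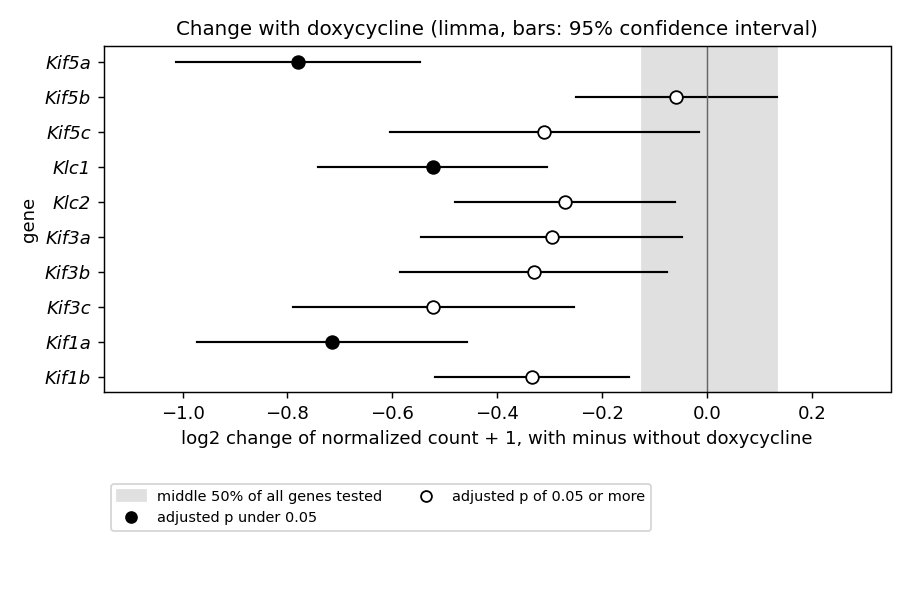
Log2 change of normalized count + 1 with minus without doxycycline (x axis) for each kinesin gene (y axis), with 95% confidence intervals from limma; filled points have an adjusted p under 0.05 and the grey band holds the middle 50% of all genes tested. Kif5a, Kif1a and Klc1 are filled, and the interval of Kif5b alone reaches across 0.

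Within each family the paralogs did not keep the same proportions. To compare levels between genes, normalized counts were divided by the coding length in kilobases, and each gene's share of its family was taken in every library. No setting of the read counting is named, so the counted region may differ from the coding sequence. Shares and the order of genes by level therefore rest on an assumed length. For Kif1b, whose row holds the long and the short isoform, the longer coding sequence was used. Kif5a made up 31.1% and 29.7% of the heavy chain level in libraries 1 and 7, against 22.5% and 23.0% in libraries 2 and 8. The share of Kif5b went the other way, from 23.8% and 28.2% to 30.9% and 33.1%. Kif5c held 45.0% and 42.2% without and 46.6% and 43.9% with doxycycline, and these groups overlapped. The order of the heavy chains by mean level was thus Kif5c, Kif5a, Kif5b without doxycycline, at 3217, 2244 and 1909 normalized counts per coding kilobase, and Kif5c, Kif5b, Kif5a with it, at 2603, 1833 and 1307. Kif5a and Kif5b were nearly level in library 7, at 2108 and 1999, so their order without doxycycline was clear in library 1 only, whereas with doxycycline Kif5b was above Kif5a in both libraries.

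In each of the other families the shares of the groups did not overlap. Kif1a accounted for 44.8% and 42.4% of the kinesin-3 level without and for 37.7% and 36.7% with doxycycline, and Kif1b for the rest. Kif3c held 32.7% and 32.2% of kinesin-2 without and 29.3% and 29.1% with doxycycline. The ratio of Kif3a to the sum of its partners Kif3b and Kif3c was 0.904 and 0.906 without and 1.00 and 1.01 with doxycycline. Klc1 made up 84.3% and 83.6% of the light chain level without and 81.4% and 81.6% with doxycycline. Heavy chains summed to 0.760 and 0.812 times the light chains without and to 0.883 and 0.822 times with doxycycline. These shares and ratios are a description without a test, and with 2 libraries in each group the smallest p that an exact permutation test allows is 0.3333.

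**Figure D3:**
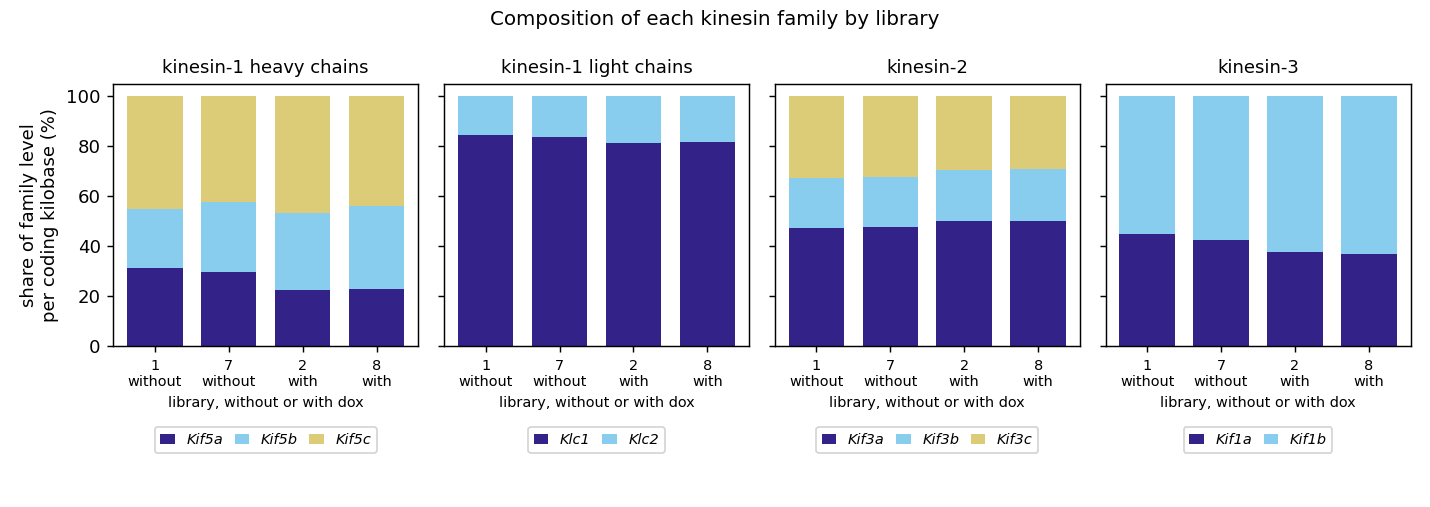
Share of each gene in the summed level per coding kilobase of its family (y axis, %) in each library (x axis, libraries 1 and 7 without and 2 and 8 with doxycycline). The shares of Kif5a, Kif1a, Kif3c and Klc1 are smaller in both libraries with doxycycline than in both without.

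By mean level per coding kilobase without doxycycline, Klc1 came first at 7891 ± 823, followed by Kif5c at 3217 ± 317, Kif5a at 2244 ± 192 and Kif5b at 1909 ± 127. Kif1b (1634 ± 49.2), Kif3a (1554 ± 115) and Klc2 (1505 ± 104) came next, and neighbours in this order differed by less than the larger of their SDs. Kif1a (1265 ± 125), Kif3c (1062 ± 89.9) and Kif3b (656 ± 39.4) were lowest. With doxycycline Kif1a stood at 771 ± 82.8 and Kif3c at 741 ± 87.2, a difference within their spread.

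The genes whose pattern over the 4 libraries was closest to that of Kif5a were Asxl3, Fam219aos and Nmnat2. Likeness was the root mean square difference of log2 values after centring each gene on its own mean, and it was 0.0142, 0.0196 and 0.0253 for these 3. Fam219aos is named as an antisense transcript, and since the sources used here do not say if the authors counted by strand, its reads and those of the overlapping gene cannot be told apart. Asxl3, for example, had 862 and 777 normalized counts without and 507 and 438 with doxycycline. For Kif5c the closest were Tspyl4, Nhlh1 and Cd24a, with 0.00748, 0.0174 and 0.0201. Kif5b was closest to Agphd1, Zbtb1 and Zbtb41, with 0.00469, 0.00802 and 0.00821. Such nearness is common over 4 libraries: 115 rows lay within 0.1 of Kif5a, 668 of Kif5c and 3624 of Kif5b.

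Of 18 other listed kinesins and associated chains without a mainly mitotic role, 8 had changes below 0 and 10 above, where 50.6% of all rows were above. Their median was 0.03, and Kif21a was the only one called, against 2.37% of all rows called in either direction. Kif21a, a kinesin-4 motor that also restrains microtubule growth, rose from 3970 and 3823 normalized counts to 5588 and 5389, which is 0.49 ± 0.06 on the log2 scale (limma, adjusted p = 0.0276). Its call was lost without library 1, 2 or 8 (limma, adjusted p = 0.0543, 0.0872 and 0.107) and without an intensity trend (0.0809). Kifap3, the kinesin-2 accessory protein, had a mean of 2633 without and 2083 with doxycycline, with a change of -0.34 ± 0.10 (limma, adjusted p = 0.149). It was picked here as the partner of the Kif3 motors. All 15 kinesins listed as mitotic had changes above 0, from 0.16 to 0.47. In all 15 both libraries with doxycycline were above both without, which held for 26.7% of all rows. None of the 15 passed the limma test, and 9 had an unadjusted p under 0.05, as 9.58% of all rows did in that direction. Without library 7, 1 of the 15 was called higher. The nearest were Kif2c (0.36 ± 0.07; limma, adjusted p = 0.0717) and Kif18a (0.47 ± 0.11; limma, adjusted p = 0.0929).

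Other proteins couple kinesins to cargo or switch them on. Of 31 listed adaptors and regulators, 22 had changes below 0 and 9 above, with a median of -0.20, against 49.4% of all rows below 0. Arl8a alone was called, in the downward direction, in which 1.79% of all rows were called. Arl8a, a small GTPase that links lysosomes and synaptic vesicle precursors to kinesins, had 3660 and 3323 normalized counts without and 2463 and 2456 with doxycycline, which is -0.50 ± 0.07 on the log2 scale (limma, adjusted p = 0.0388). The call was lost without library 1, 2 or 8 (limma, adjusted p = 0.115, 0.107 and 0.156) and without an intensity trend (0.0913). Of 21 listed genes for cargo of anterograde transport, 20 had changes below 0 (49.4% of all rows), with a median of -0.35, and 4 fell (1.79% of all rows). Among them were the neurofilament genes Nefm (-1.45 ± 0.10) and Nefl (-1.31 ± 0.13) and the vesicle fusion gene Snap25 (-0.70 ± 0.08). Nefm, Nefl and Snap25 are also neuronal markers, so this list and the pan-neuronal list share genes. The number of called cargo genes changed with the library left out, and the call of Snap25 was lost without library 1, 2 or 8. That of Nefl was lost without an intensity trend (limma, adjusted p = 0.0577).

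Retrograde transport, from the axon tip to the cell body, is driven by cytoplasmic dynein with its activator dynactin. Of 28 listed subunits and regulators, 24 had changes below 0 (49.4% of all rows) and 2 fell (1.79% of all rows), with a median of -0.16. Dync1i1, the dynein intermediate chain enriched in neurons, had 153 and 204 normalized counts in the vehicle libraries, against 48.3 and 43.2 under doxycycline, or -1.93 ± 0.25 on the log2 scale (limma, adjusted p = 0.0283). Its level was far below that of the other intermediate chain gene, Dync1i2, which had means of 6861 and 5929 normalized counts and a change of -0.21 ± 0.07. Dctn1, the largest dynactin subunit, went from 10195 and 9427 to 7384 and 7596 normalized counts, or -0.39 ± 0.07 on the log2 scale (limma, adjusted p = 0.0486). The call of Dync1i1 was lost whichever library was left out (limma, adjusted p from 0.0527 to 0.112), and that of Dctn1 without library 1, 2 or 8, with quantile normalization (0.0769) and without an intensity trend (0.119). Intraflagellar transport, the ciliary task of kinesin-2, showed no limma calls. Of its 20 listed genes 16 had changes above 0 (50.6% of all rows), with a median of 0.09. In that direction 3 had an unadjusted p under 0.05, as 9.58% of all rows did. The smallest p-values there belonged to Ttc21b (0.35 ± 0.09; limma, adjusted p = 0.107) and Ift80 (0.27 ± 0.09; limma, adjusted p = 0.183).

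**Figure D4:**
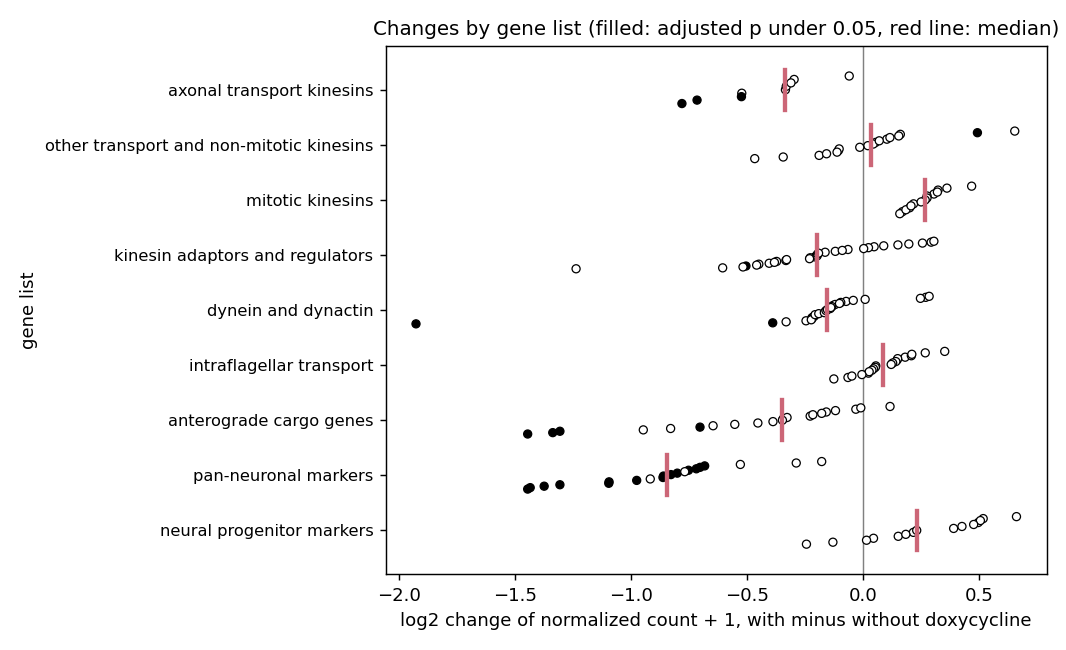
Log2 change of normalized count + 1 with minus without doxycycline (x axis) for the genes of each list (y axis); each point is 1 gene, filled where the adjusted p is under 0.05, and the red line is the list's median. The medians of the axonal transport kinesins and of the cargo genes lie at -0.33 and -0.35, between those of the pan-neuronal markers at -0.84 and the mitotic kinesins at 0.27.

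Markers of neurons fell as well. All 20 pan-neuronal markers had changes below 0 (49.4% of all rows), 15 of them fell (1.79% of all rows), and their median was -0.84, lower than the change of any of the 9 kinesin genes. The number of pan-neuronal markers called changed with the library left out, and it was 4 without an intensity trend, where 105 of all rows were called. Their summed normalized count was 218318 in library 1 and 192077 in library 7, against 111908 and 90698 in libraries 2 and 8. Of 15 neural progenitor markers 13 had changes above 0 (50.6% of all rows), with a median of 0.23. None passed the limma test. Fits that left out a library called few or none of them higher, and the calls over all rows also varied between such fits. With a change above 0, 7 had an unadjusted p under 0.05, as 9.58% of all rows did. The summed count of the 15 ranged from 48869 to 50977 without and from 52344 to 57661 with doxycycline. Of 10 glial markers 5 were listed, 2 with changes below 0 and 3 above, where 50.6% of all rows were above. Only Slc1a3, a glutamate transporter gene, was called, with a rise of 0.52 ± 0.08 (limma, adjusted p = 0.0413). Over all rows 0.579% were called higher. The call of Slc1a3 was lost whichever library was left out and without an intensity trend. The defining astrocyte and oligodendrocyte markers Gfap, Aqp4, Aldh1l1, Sox10 and S100b were not listed. The part of these cell types in the kinesin changes was not tested.

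The promoter table held 7 of the 10 genes, without entries for Kif5a, Kif5b and Klc2. The 250 bases before the first start of each were searched on both strands for TAATTA, a core motif of many homeodomain factors, for the E-box CANNTG and for the GC box GGGCGG. The first of these was in none of the 7 windows and in 4.90% of the 27025 promoters of the table. E-boxes were in those of Kif1a, Kif1b, Kif3a, Kif3c and Kif5c, and in 66.0% of all promoters. GC boxes were in those of Klc1 and Kif1b, with 3 each, and of Kif3a and Kif3b, with 1 each, and in 32.9% of all. The GC content of the 7 windows ranged from 55.2% for Kif5c to 72.4% for Klc1, with 69.2% for Kif1a, and the median over all promoters was 52.0%.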

How the data were processed

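RNA was sequenced in 4 libraries, 2 per group, prepared with Illumina TruSeq as the labels' protocols state. CASAVA, TopHat2, HTSeq, DESeq and build mm9 are named, with no version or setting, in the submitters' processing notes. The deposited signal is a normalized read count per gene, which by its values the authors scaled with 1 factor for each library. Below 200, 100% of the values fall on whole multiples (tolerance 0.1) of a step of 0.882 to 1.18, fixed in each library and taken as 1 read to estimate reads. No count model was fitted.

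Column initials gave the group of each library, and its numbers (1, 7, 2, 8) differ from the labels' replicate numbers. Libraries of a group were no duplicates (chi-square per degree of freedom 26.4 and 28.3).

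All 11747 rows were tested with limma 3.58.1 in R 4.3.3 on log2(value + 1), with moderation that follows intensity. Tests were two-sided, and Benjamini-Hochberg adjusted p-values under 0.05 were called. The lowest row mean was 40.1, so the filter on means under 10 left out no row and all 9 kinesin genes passed it. The fit was also run on simulated counts with independent libraries and the same dispersion setting for every gene. The deposited libraries deviate together, so that run does not test the fit under such deviations. Tried besides were quantile normalization, TMM factors (trims 0.3 and 0.05), pseudocounts of 0.5 and 5, a filter at 50 or none, robust moderation, no trend, a replicate block and each library left out. Symbols missing in the table and older symbols were matched by RefSeq accession, which found 6 list genes, and 205 of 224 list genes were listed. Coding lengths without the stop codon came from GENCODE M21 on GRCm38, as the longest coding sequence among a row's accessions. Promoters are those of RefSeq on GRCm38.p6, a build other than mm9.

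The members and gene lists were chosen with earlier results of these data known. Named are all members and, of each other list, up to 4 called genes or else the 2 with the smallest p. So are the 3 rows closest in pattern to each kinesin-1 heavy chain. Not every gene picked in this way is printed. Kifap3, Dync1i2, Lhx3, the basement membrane genes and list genes given by name alone were chosen besides. The counts of the cargo list include 1 gene that is not reported here. Python 3.11.15, pandas 2.3.3, numpy 2.4.6 and matplotlib 3.10.9 were used.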

Additional observations from a re-analysis of the deposited data

How the results depend on the processing

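The direction of 9 of the 10 genes, Klc2 included, was the same under all 13 alternatives. Kif5b, which never passed, changed sign without library 7 (0.00922) and without library 8 (0.000270), the lowest value of such fits being -0.13. Without an intensity trend 105 genes were called in place of 278, 0 kinesin genes lower in place of 3, and 3 genes of the other transport lists lower and 0 higher in place of 7 and 1. Robust moderation called 419 genes. With quantile normalization 2 kinesin genes were called lower, without Klc1. Leaving out 1 library gave 44 to 494 called genes, 0 to 4 kinesin genes lower, 2 to 11 genes of the other transport lists lower and 0 to 2 higher, and a median change of the kinesin genes of -0.46 to -0.25. In such a fit the lone library of a group is assumed to vary like the other group. The change in the Kif5a share of the heavy chains was -7.64 percentage points, -7.89 without division by length and -8.37 to -6.92 with a library left out.

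The labels do not pair the columns. Deviations of library 1 from 7 and of 2 from 8 correlated across rows (r = 0.63, over genes, which are not replicates). A replicate block on library 1 with 2 and 7 with 8, which leaves 1 residual degree of freedom, called 3508 of all 11747 rows. The split of these rows by direction is not given here, so the counts that follow have no share of their own direction beside them. The block called 8 kinesin genes lower (all but Kif5b). Of the other transport lists it called 49 genes lower and 26 higher, among them 13 of the 15 mitotic kinesins higher. It also called 11 of the 15 neural progenitor markers higher. Why these counts differ was not tested. Each kinesin gene had at least 1071 estimated reads in each library, for which the counting error is at most 3.06%.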
